A study of Mus musculus with 2 samples.

Results

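The genes described here are the clustered histone genes of the mouse, taken as every gene symbol that begins with Hist and a cluster number from 1 to 4. There were 67 such genes among the 31053 genes counted. By the type of protein they encode, 6 were H1, 18 were H2A, 18 were H2B, 12 were H3 and 13 were H4 genes. Of the 67 genes, 54 belonged to cluster 1 on chromosome 13, 10 to cluster 2 on chromosome 3, 2 to cluster 3 on chromosome 11 and 1 to cluster 4 on chromosome 6. They were measured by single-cell RNA sequencing in sorted bone marrow (BM) cells of C57BL/6;Balb/c mice. All mice had received 300 rads. Radiation control (RC) mice received nothing further, and mice with severe aplastic anemia (SAA) also received 65000000 B6 splenocytes. Each condition is a single library of live (7-AAD-) CD11b+Ly6C+Ly6G- cells from 3 pooled mice. With 2 libraries and no replicates, no test between conditions could be made. Every interval below is a 95% interval that covers counting error only, and a difference outside it may still lie within the unmeasured spread between mice.

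Replication-dependent histone genes supply the protein that packages newly made DNA. Their mRNAs are made in bulk during S phase and are then rapidly degraded. Most of these mRNAs end in a short stem-loop instead of a poly(A) tail. The stem-loop is bound by the stem-loop binding protein Slbp, which serves processing, translation and stability of the message. H2A, H2B, H3 and H4 form the nucleosome core, and H1 binds the linker DNA between cores. A smaller number of clustered genes are known to give polyadenylated messages in cells that do not divide, and replication-independent variants such as H2afz and H3f3a lie outside the clusters.

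The 3′ ends of the genes are shown first, because the stem-loop is the element that sets these messages apart. In the GENCODE vM21 annotation of GRCm38 (mm10), all 67 genes had a model and 62 had a single exon. The model of a gene is its longest protein-coding transcript, so shorter transcripts with another end were not examined. A stem-loop of 16 bases was found downstream of the stop codon in 43 models, always within 58 bases of it and at a median distance of 31 bases. Another 13 models end at the stop codon, so no such element could be seen in them. The 43 stem-loops had 6 forms. One form was shared by 25 genes of H1, H2A, H2B and H3 type, whereas 3 of the other forms, in 7, 2 and 2 genes, occurred in H4 genes only. At least 1 gene is shown for each form, with the stem-loop in capitals between its flanking bases, in 5′ to 3′ order on the strand of the gene. Coordinates are those of the capitals, all in the 3′ UTR.
Hist1h2ae (25 genes with this form), chr13:23570668-23570683, minus strand: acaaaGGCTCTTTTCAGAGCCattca
Hist1h1e (same form), chr13:23621782-23621797, minus strand: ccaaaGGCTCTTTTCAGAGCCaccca
Hist1h1c (same form), chr13:23739512-23739527, plus strand: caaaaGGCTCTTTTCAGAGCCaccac
Hist3h2a (same form), chr11:58955172-58955187, plus strand: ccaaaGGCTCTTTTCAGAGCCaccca
Hist1h3c (6 genes), chr13:23745047-23745062, minus strand: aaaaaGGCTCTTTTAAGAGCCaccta
Hist2h2ac (1 gene), chr3:96220418-96220433, minus strand: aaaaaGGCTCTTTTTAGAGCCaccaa
Hist1h4d (7 genes), chr13:23581950-23581965, plus strand: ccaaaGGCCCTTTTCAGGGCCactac
Hist1h4i (2 genes), chr13:22040966-22040981, minus strand: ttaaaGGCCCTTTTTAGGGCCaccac
Hist1h4j (2 genes), chr13:21735437-21735452, plus strand: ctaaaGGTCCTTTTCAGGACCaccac

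Promoters are shown because these genes vary together along the cell cycle. RefSeq promoters (GRCm38.p6, 250 bases before to 50 bases after the start) were matched for 62 of the 67 genes. The 4 motifs below were searched on both strands, and none contains another, though their end bases can overlap. TATAAA occurred in 35 of the 62 promoters (56.45%), against 13.62% of all 32851 promoters. CCAAT occurred in 53 of 62 (85.48%), against 37.41%, and was present in all H1, H2A, H2B and H3 promoters matched but in only 3 of 12 H4 promoters. The octamer ATTTGCAT occurred in 7 of 18 H2A and 7 of 16 H2B promoters and in no H1, H3 or H4 promoter, against 1.735% of all promoters. AAACACA, a motif known from H1 promoters, occurred in 5 of 6 H1 promoters, the exception being Hist1h1a, against 7.184% of all promoters. It also occurred in 2 of 18 H2A and 2 of 16 H2B promoters and in no H3 or H4 promoter. H2A and H2B genes of a divergent pair share part of these windows and are not independent. The 150 bases upstream of the RefSeq start are shown for 1 well-measured gene of H1 type, a second H1 gene, an H2B gene with the octamer and an H4 gene, with the 4 motifs and their reverse complements in capitals.
Hist1h1b, chr13:21780626-21780775, minus strand: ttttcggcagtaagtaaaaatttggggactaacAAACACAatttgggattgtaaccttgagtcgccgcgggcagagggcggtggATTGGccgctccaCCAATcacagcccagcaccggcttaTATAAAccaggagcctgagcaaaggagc
Hist1h1e, chr13:23622559-23622708, minus strand: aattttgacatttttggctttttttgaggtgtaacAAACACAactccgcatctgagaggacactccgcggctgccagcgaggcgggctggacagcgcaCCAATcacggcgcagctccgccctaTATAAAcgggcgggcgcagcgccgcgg
Hist1h2bm, chr13:21721894-21722043, plus strand: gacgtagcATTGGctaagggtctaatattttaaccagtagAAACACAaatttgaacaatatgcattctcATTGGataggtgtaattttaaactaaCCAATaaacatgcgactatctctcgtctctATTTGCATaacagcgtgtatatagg
Hist1h4d, chr13:23581418-23581567, plus strand: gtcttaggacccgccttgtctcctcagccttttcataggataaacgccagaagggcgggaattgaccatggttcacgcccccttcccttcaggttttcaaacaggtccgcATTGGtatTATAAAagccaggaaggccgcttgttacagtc

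The libraries held 798 (RC) and 825 (SAA) cell barcodes. Barcodes with at least 1000 genes were kept, 662 in RC and 729 in SAA, with 3844394 and 5453285 unique molecular identifiers (UMIs, 1 per captured transcript whatever its length). A barcode was called monocyte-like if the UMIs of 5 monocyte genes exceeded those of 8 granulocyte genes and granulocyte-like in the reverse case, and cycling if Top2a, Mki67, Stmn1 and Pclaf together had at least 5 UMIs. No histone gene entered these rules. In all, 1366 barcodes were classed, and 2 in RC and 23 in SAA were ties. Among 6 monocyte markers and 6 granulocyte markers that the rules did not use, the monocyte sum was 2448 to 5552 UMIs per 1000000 UMIs of the group (CPM) in the 4 monocyte-like groups and 32.9 to 317.6 CPM in the granulocyte-like groups. The granulocyte sum was 177.1 to 260.3 CPM in monocyte-like and 10426 to 28306 CPM in granulocyte-like groups, the latter including Ly6g UMIs in spite of the Ly6G- gate. Of the 6 granulocyte markers, 5 were higher in granulocyte-like groups throughout. Mmp8 was instead higher in monocyte-like cells in 3 of 4 pairs, at 80.3 against 0.453 CPM (RC cycling), 85.1 against 11.0 CPM (RC non-cycling) and 48.1 against 1.329 CPM (SAA cycling). T or NK cell markers marked 1 RC and 39 SAA barcodes, 17 of the latter within the classes. One barcode sequence occurred in both libraries.

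Histone RNA was concentrated in cycling cells and in a few genes. The 67 genes had 29918 UMIs in the classed barcodes and took almost the same part of all retained UMIs in both libraries, 0.3253% in RC and 0.3254% in SAA. Of the 67, 62 had at least 1 UMI, 33 had at least 100 and 29 had 1 to 99. The 5 genes at 0 UMIs were Hist2h3c2, Hist1h4m, Hist1h2bq and a pair known from testis, Hist1h2ba and Hist1h2aa. A count of 0 allows up to 3 UMIs for the testis pair. No such limit holds for Hist1h2bq, Hist1h4m and Hist2h3c2, since 100%, 88.50% and 61.98% of their 90-base windows also occur in other genes and reads that fit several genes equally well are dropped. Hist1h2ap (4996 UMIs), Hist1h1b (4684) and Hist1h2ae (4485) together held 47.35% of the histone UMIs, and with Hist1h1e (2928) and Hist1h1d (2000) they held 63.82%. H2A genes held 40.20%, H1 genes 36.29%, H4 genes 11.66%, H2B genes 6.742% and H3 genes 5.117%. Levels of different genes are UMIs of captured molecules and do not account for how well a message with or without a poly(A) tail is captured. Reads of near-identical genes cannot be told apart over shared stretches. Of all 90-base windows of a gene's transcript, over 50% also occurred in another gene for 27 of the 67, among them Hist1h2ap (92.37%, shared with Hist1h2ao) and Hist2h2aa1 (88.53%), so the split of counts within such groups is uncertain. By contrast, 31.87% of the windows of Hist1h2ae were shared.

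In cycling monocyte-like cells the histone sum was 6920 CPM (6702 to 7144) in 88 RC barcodes and 4358 CPM (4246 to 4472) in 141 SAA barcodes. In cycling granulocyte-like cells it was 3827 CPM (3746 to 3909) in 269 RC barcodes and 3812 CPM (3742 to 3882) in 350 SAA barcodes. Non-cycling groups were far lower. The sum was 262.7 CPM (228.6 to 300.5) in 254 RC and 205.9 CPM (174.1 to 241.9) in 144 SAA monocyte-like barcodes. It was 197.6 CPM (148.4 to 257.8) in 49 RC and 288.0 CPM (231.0 to 354.9) in 71 SAA granulocyte-like barcodes. Median depth was 5796 to 8651 UMIs per barcode in the cycling and 2907.5 to 4899 in the non-cycling groups. After every barcode was thinned to 2500 UMIs, the median barcode still held 14 histone UMIs in RC cycling monocyte-like cells, 8 in each of the other cycling groups and 0 in all 4 non-cycling groups.

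**Figure D1:**
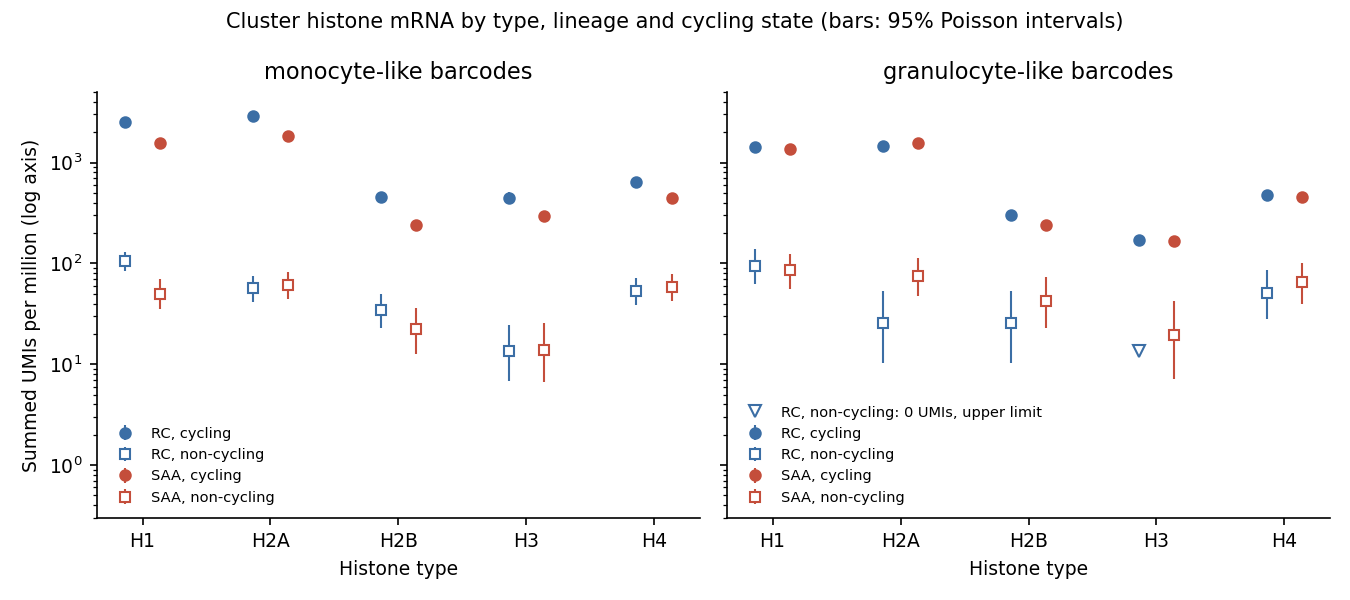
Summed CPM of the 5 histone types (log axis, 95% Poisson intervals) in the 4 cell classes of each library, 1 point per library and type. H2A and H1 are highest in every cycling class, and RC lies above SAA for each type in cycling monocyte-like cells (H2A 2874 against 1825 CPM).

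H1, the linker histone, was carried by 5 genes. In the 4 cycling groups (RC monocyte-like, SAA monocyte-like, RC granulocyte-like, SAA granulocyte-like, the order kept below) Hist1h1b was at 1253, 788.0, 535.7 and 584.4 CPM. Hist1h1e was at 650.0, 322.2, 468.1 and 347.5 CPM, and Hist1h1d at 356.1, 255.0, 261.5 and 288.0 CPM. Hist1h1c and Hist1h1a were lower, at 63.4 to 133.3 and 62.99 to 116.8 CPM, and the testis gene Hist1h1t had 1 UMI. Thus Hist1h1b was the H1 gene with the highest level in every cycling group.

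The core histones were each led by few genes. Among 18 H2A genes, Hist1h2ap was at 918.4, 704.8, 617.2 and 721.6 CPM and Hist1h2ae at 1426, 724.7, 534.3 and 514.3 CPM. Both exceeded the next, Hist2h2ac (102.9 to 135.1 CPM), in every cycling group. H2B genes were far lower, led by Hist2h2bb of cluster 2 (94.4 to 149.7 CPM), with Hist1h2bn, Hist1h2bj and Hist1h2bb at 17.6 to 51.1 CPM. H3 counts were spread over Hist1h3c (49.5 to 126.0 CPM), Hist1h3e (36.3 to 115.0 CPM) and a run of lower genes, Hist1h3d, Hist1h3f, Hist1h3g and Hist1h3i (11.96 to 54.8 CPM). H4 was led by Hist1h4d (132.9 to 277.5 CPM) and Hist4h4 (88.4 to 137.2 CPM), the single gene of cluster 4, followed by Hist1h4h (32.6 to 71.2 CPM) in RC and SAA monocyte-like cells and by Hist2h4 (35.9 to 58.9 CPM) in the granulocyte-like groups.

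Neighbouring H2A and H2B genes did not share levels. The annotation held 12 divergent H2A and H2B pairs whose start sites lie 176 to 306 bases apart. Over the 12 pairs the H2A partners had 11231 UMIs and the H2B partners 755. The H2A partner had more UMIs in 8 of the 12 pairs. Hist1h2ap had 4996 UMIs beside 9 for Hist1h2br, Hist1h2ae 4485 beside 91 for Hist1h2bg, and Hist2h2ac 806 beside 22 for Hist2h2be. The order was the reverse for Hist1h2ag (34 UMIs) and Hist1h2bj (200 UMIs) and for Hist1h2ad (13) and Hist1h2bf (45). Hist1h2ah (27) and Hist1h2bk (28) were nearly equal, and Hist1h2aa and Hist1h2ba both had 0 UMIs. Of the windows of Hist1h2br 99.83% are shared with Hist1h2bq, so its low count is uncertain.

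Cycling cells exceeded non-cycling cells in histone RNA in both lineages of both libraries. The cycling to non-cycling ratio of summed CPM was 26.3 (22.9 to 30.4) in RC monocyte-like, 19.4 (14.8 to 25.8) in RC granulocyte-like, 21.2 (18.0 to 25.1) in SAA monocyte-like and 13.2 (10.7 to 16.5) in SAA granulocyte-like cells. When barcodes were thinned to 2500 UMIs before they were classed, so that the threshold of 5 UMIs applied to fewer UMIs, the ratios were 22.3, 4.610, 12.9 and 4.148. A gene was called higher or lower where its ratio was at least 1.5-fold, its interval left out 1 and both groups together had at least 20 UMIs. By this rule 29 of 29 histone genes were higher in RC monocyte-like cells (14.7% of all genes), 28 of 37 in RC granulocyte-like (6.43%), 32 of 33 in SAA monocyte-like (13.3%) and 25 of 42 in SAA granulocyte-like cells (11.8%). The number called lower was 0, 0, 0 and 1 in the same order (12.3, 2.19, 8.96 and 4.95% of all genes), the last being Hist1h2bc in SAA granulocyte-like cells (ratio 0.2876, 0.1082 to 0.8908).

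The types differed in how far they separated the classes. H2A had the highest ratios, 50.7 (37.8 to 69.5), 56.6 (27.5 to 140.9) and 20.9 (13.9 to 33.1) in RC monocyte-like, RC granulocyte-like and SAA granulocyte-like cells, and H1 the highest, 30.9 (22.2 to 44.2), in SAA monocyte-like cells, where H2A was at 29.8 (22.1 to 41.1). H3 had 0 UMIs in the 49 RC non-cycling granulocyte-like barcodes, so it has no ratio there. H4 ratios lay between 6.968 and 11.98 and H2B ratios between 5.598 and 13.2. Hist1h1a had 559 UMIs in cycling cells and 0 in non-cycling cells. Against a floor of 3 UMIs per group, it was at least 31.1-fold higher in RC monocyte-like and at least 27.99-fold higher in SAA monocyte-like cycling cells. Hist1h1b was 84.6-fold (48.1 to 164.6) and 188.8-fold (64.4 to 917.0) higher in the same comparisons, but Hist1h1c only 4.502-fold (2.805 to 7.469) and 7.592-fold (3.344 to 21.3).

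The threshold of the rule was then opened into 6 bins of UMIs of Top2a, Mki67, Stmn1 and Pclaf, a view added after the data were seen. Histone levels did not climb evenly across them. In granulocyte-like cells the sum stayed at 154.4, 160.4, 256.8 and 316.4 CPM in RC barcodes with 0, 1 to 2, 3 to 4 and 5 to 9 UMIs, and reached 2910 CPM (2766 to 3060) at 10 to 19 and 4999 CPM (4881 to 5119) at 20 or more. SAA granulocyte-like cells gave 582.8, 2462 and 4872 CPM in the last 3 bins. In monocyte-like cells with 5 to 9 UMIs the libraries differed, with 1911 CPM (1496 to 2407) over only 10 RC barcodes and 290.9 CPM (219.2 to 378.7) over 30 SAA barcodes. At 20 or more UMIs the monocyte-like sums were 8295 CPM (8020 to 8577) in 56 RC and 5795 CPM (5642 to 5951) in 88 SAA barcodes. The SAA bin of 5 to 9 UMIs, counted as cycling, thus lay nearer to the non-cycling sum (205.9 CPM) than to the other cycling bins.

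**Figure D2:**
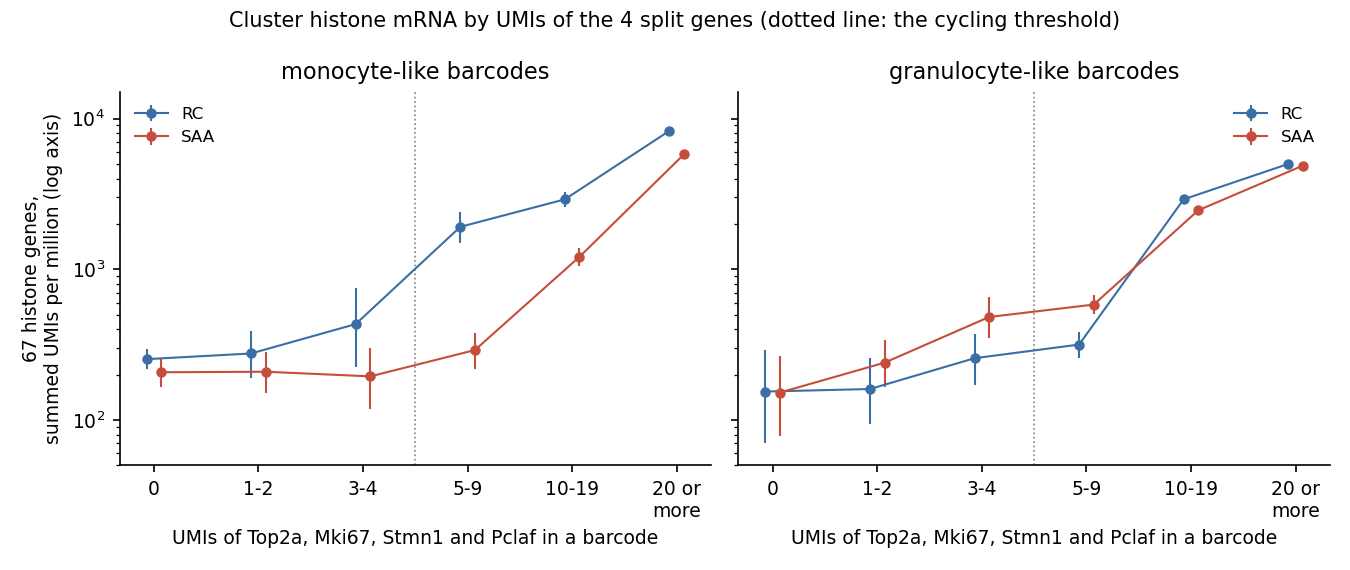
Summed histone CPM (log axis, 95% Poisson intervals) against the UMIs of Top2a, Mki67, Stmn1 and Pclaf in a barcode, in 6 bins, by lineage and library. The step to over 1000 CPM lies between the bins of 5 to 9 and 10 to 19 UMIs in SAA monocyte-like and in both granulocyte-like groups, and 1 bin earlier in RC monocyte-like cells (10 barcodes).

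Relative to its level in cycling cells, histone RNA was lower in non-cycling cells than the RNA of other cell-cycle genes in most comparisons. The non-cycling level as a percentage of the cycling level was 3.797, 5.163, 4.725 and 7.556% for the histone sum in RC monocyte-like, RC granulocyte-like, SAA monocyte-like and SAA granulocyte-like cells. For 30 S-phase genes that serve DNA replication the same percentages were 15.01, 77.73, 15.96 and 41.44%, and for 28 genes of G2 and mitosis they were 2.617, 24.3, 7.502 and 38.8%. The histone percentage was lower than that of the S list in all 4 groups and lower than that of the G2M list in 3, the exception being RC monocyte-like cells. These percentages depend on the class rule. With barcodes thinned before classing, the histone sum stood at 4.487, 21.7, 7.745 and 24.1% in the same order, the S list at 14.5, 89.4, 25.01 and 74.9% and the G2M list at 4.312, 51.6, 16.1 and 54.4%, so the granulocyte-like histone percentages were several times higher and the order of the lists was as before. Per gene, over both libraries and lineages, the median percentage was 5.210% among 54 histone genes with at least 20 UMIs, 26.5% among S-list and 11.9% among G2M-list genes.

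A few clustered genes departed from this pattern. Their non-cycling level was over 20% of the cycling level in 7 of the 54 genes and over 50% in 3. Hist3h2a, an H2A gene of cluster 3, was at 414.5% (208.3 to 836.7), with 21 non-cycling and 17 cycling UMIs. These percentages pool both lineages. Most non-cycling UMIs of all genes came from monocyte-like and most cycling UMIs from granulocyte-like cells, so the mix of lineages enters each value. Within monocyte-like cells Hist3h2a was at 8.635 CPM non-cycling and 5.478 CPM cycling in RC (7 and 3 UMIs). In SAA these were 18.09 and 3.818 CPM (13 and 5 UMIs). In granulocyte-like cells they were 0 and 1.360 CPM in RC (0 and 3 UMIs) and 3.273 and 1.993 CPM in SAA (1 and 6 UMIs). Of the windows of Hist3h2a 30.14% are shared with another gene, Trim17, so its count is in part uncertain. Hist1h2bc, an H2B gene known for a polyadenylated message, was at 167.8% (97.1 to 282.5), with 23 non-cycling and 46 cycling UMIs. In RC monocyte-like cells Hist1h2bc was lower in non-cycling (7.401 CPM) than in cycling cells (14.61 CPM). It was higher in non-cycling cells in SAA monocyte-like (12.52 against 9.163 CPM), RC granulocyte-like (7.318 against 4.079 CPM) and SAA granulocyte-like cells (19.64 against 5.648 CPM). Hist2h2be, another H2B gene, was at 156.6% (54.0 to 408.0) with 7 and 15 UMIs, so its interval spans equality, as does that of Hist1h2bc. The other 4 were Hist1h4i (38.7%), Hist1h4b (37.3%, from 4 and 36 UMIs), Hist1h2be (27.0%) and Hist1h1c (26.5%, 19.4 to 35.3). Hist1h4b had 0 non-cycling UMIs in RC and 4 in SAA, and Hist1h2be 9 in RC and 0 in SAA. The values of Hist1h4b and Hist1h2be thus rest on 1 library each. Hist2h2be, Hist1h4b and Hist1h2be were named after their values were seen.

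The same genes were followed by the share of barcodes with a UMI. Hist3h2a had a UMI in 9.028% (4.895 to 14.9) of 144 SAA and 2.756% (1.115 to 5.596) of 254 RC non-cycling monocyte-like barcodes, and in 1.115 to 3.409% of the 4 cycling groups. After thinning to 2500 UMIs these shares were 3.817% (1.251 to 8.682) in SAA and 1.554% (0.3217 to 4.475) in RC, and their intervals overlap. By contrast, Hist1h1b had a UMI in 66.0 to 80.7% of cycling and 2.083 to 4.082% of non-cycling barcodes. Hist1h1c was seen in 20.4% (10.2 to 34.3) of 49 RC non-cycling granulocyte-like barcodes, and Hist1h1e in 11.1 to 14.3% of the 4 non-cycling groups. With 30, 16, 7 and 10 barcodes in RC monocyte-like, SAA monocyte-like, RC granulocyte-like and SAA granulocyte-like cells, Hist1h1e and, with 19, 6, 10 and 8, Hist1h1c were thus spread over barcodes, not carried by 1 or 2. How much free RNA adds to these low shares was not tested.

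**Figure D3:**
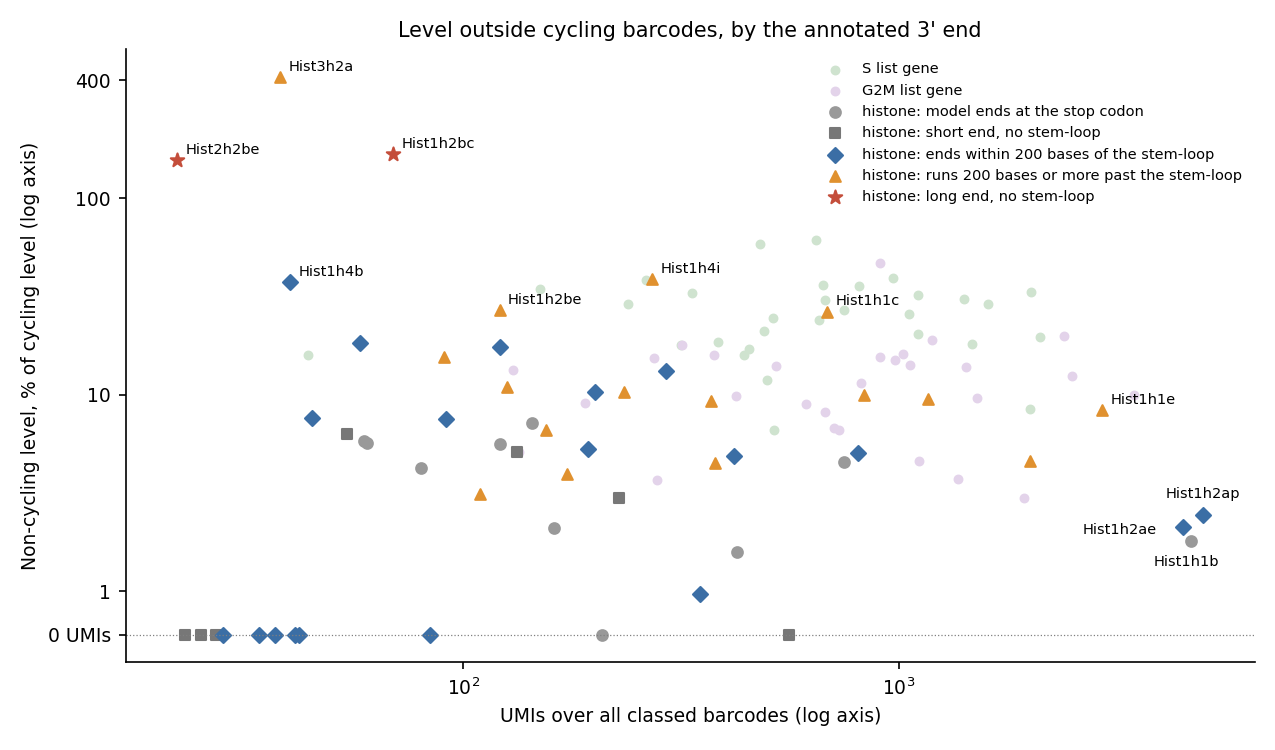
Non-cycling level as a percentage of the cycling level (log axis) for histone genes, S-list and G2M-list genes with at least 20 UMIs, both libraries and lineages together. Most histone genes lie below the S-list genes (medians 5.210 and 26.5%), while Hist3h2a, Hist1h2bc and Hist2h2be lie above 100%.

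Levels outside cycling cells were also set against the annotated 3′ end. Gene models that end within 200 bases of the stem-loop (25 genes, 19 with at least 20 UMIs) had a median non-cycling percentage of 4.887%, and 0.9681% of their UMIs lay in non-cycling cells. Models that run 200 bases or more past it (18 genes, 16 measured) had a median of 9.721% and 3.109% of UMIs. These include Hist3h2a, whose model runs 1643 bases past the stem-loop shown above, Hist1h1c (840 bases), Hist1h1e (1153 bases) and Hist1h4i (330 bases). Long models without the stem-loop (4 genes) had 31.00% of their UMIs in non-cycling cells, from Hist1h2bc and Hist2h2be for the most part. Models that end at the stop codon (13 genes) gave 0.6874% and short models without a stem-loop (7 genes) 0.4771%. Individual genes did not all follow the medians. Of the long models with a stem-loop, Hist1h1d, which runs 4884 bases past it, stood at 4.592%, Hist2h4 (1257 bases) at 4.51%, Hist1h3d (752 bases) at 3.925% and Hist1h2bh (1214 bases, named after its values were seen) at 3.107%, all below the median of the short models. Hist4h4 (2445 bases) stood at 9.991%. Among the short models Hist1h4b stood at 37.3%, from 4 non-cycling UMIs, all in SAA. The stem-loop itself was the same in Hist3h2a, Hist1h1c, Hist1h1e and Hist1h2ae, of which Hist1h2ae stood at 2.108%. This is a description over genes by their longest model, without a test, and which end the captured messages had was not measured.

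Within cycling cells, barcodes were ordered by the S list against the G2M list, neither of which holds a histone gene or a gene of the cycling rule. In 5 equal bins from S to G2M, a view added after the data were seen, histone RNA peaked between the extremes. RC granulocyte-like cells gave 1517, 4927, 6448, 4503 and 2703 CPM from the first to the fifth bin, over 45 to 69 barcodes each. SAA granulocyte-like cells gave 2649, 4266, 5146, 3629 and 2231 CPM over 40 to 91 barcodes. SAA monocyte-like cells gave 2614, 4862, 6019, 3953 and 3191 CPM over 20 to 38 barcodes. RC monocyte-like cells were highest in the second bin, at 14010 CPM, and then 8329, 8786 and 4494 CPM after 2836 CPM in the first, but the first 3 bins held only 8 or 9 barcodes each. The bin richest in S-list RNA was thus the lowest of the 5 in RC of both lineages and in SAA monocyte-like cells, and second lowest in SAA granulocyte-like cells.

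**Figure D4:**
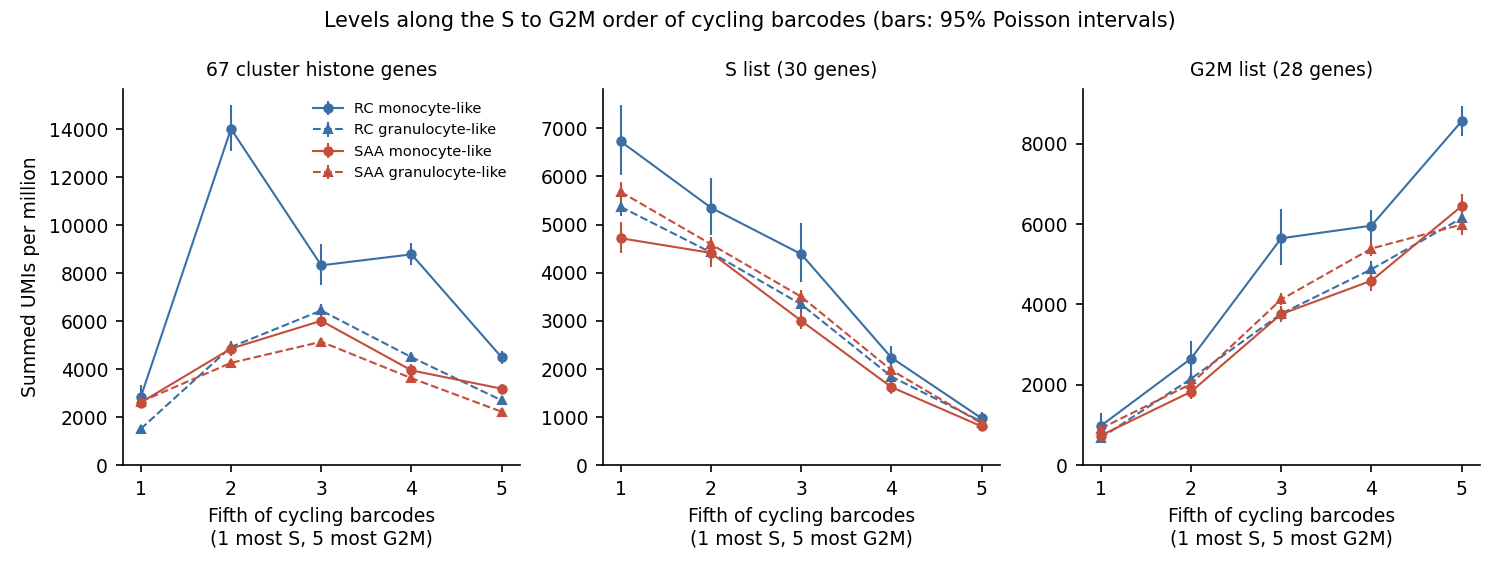
Summed CPM of histone genes, the S list and the G2M list (95% Poisson intervals) in 5 bins of cycling barcodes ordered from S to G2M, by lineage and library. The S list falls and the G2M list climbs by construction, and the histone sum is highest in the middle bin in 3 groups and in the second bin in RC monocyte-like cells.

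Divided into only 2 classes, S-leaning barcodes (relatively more S-list than G2M-list RNA) and G2M-leaning barcodes, the histone sum differed little. The S-leaning to G2M-leaning ratio was 1.354 (1.261 to 1.453) in RC monocyte-like, 0.956 (0.916 to 0.998) in RC granulocyte-like, 1.425 (1.353 to 1.502) in SAA monocyte-like and 1.086 (1.047 to 1.127) in SAA granulocyte-like cells. The direction in granulocyte-like cells was not stable. The RC value was 1.211 with cycling set at 10 UMIs, 1.043 with barcodes thinned before classing and 0.770 with raw list sums, and the SAA value was 0.897 with thinned barcodes and 0.959 with equal weight per barcode. In RC monocyte-like cells 8 of 28 histone genes were called higher (5.79% of all genes) and 0 lower (5.36%). In RC granulocyte-like cells 1 of 37 was higher (9.49%) and 0 lower (5.17%). In SAA monocyte-like cells 10 of 32 were higher (5.11%) and 0 lower (5.08%), and in SAA granulocyte-like cells 5 of 41 were higher (9.45%) and 1 lower (4.67%). In monocyte-like cells the share called higher was therefore several times the background, and in RC granulocyte-like cells it was below it. The granulocyte-like counts moved with the scaling, as TMM and the median of ratios gave 3 and 2 higher in SAA and 2 and 1 lower in RC.

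Hist1h1a was the gene on the S side in every group. Its ratios were 2.538 (1.482 to 4.299), 2.103 (1.453 to 3.087), 4.142 (2.865 to 6.100) and 2.172 (1.589 to 3.003) in RC monocyte-like, RC granulocyte-like, SAA monocyte-like and SAA granulocyte-like cells. Hist4h4 was called higher in 3 groups, at 2.470, 2.172 and 1.607 in RC monocyte-like, SAA monocyte-like and SAA granulocyte-like cells. Hist1h3g was higher in both monocyte-like groups (2.820 and 4.155), and Hist1h2ak in both SAA groups (2.248 and 2.241). Hist1h4d was called lower, at 0.6288 (0.5128 to 0.7699) in SAA granulocyte-like cells. H1 as a type was at 1.497, 0.996, 1.790 and 1.265, the highest of the 5 types by value in RC monocyte-like and SAA granulocyte-like cells, and H3 was highest, at 1.883 (1.533 to 2.316), in SAA monocyte-like cells.

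Cycling monocyte-like cells of SAA mice had lower histone CPM than those of RC mice. The SAA to RC ratio of the sum was 0.6297 (0.6043 to 0.6563), and the types gave 0.617 (H1), 0.635 (H2A), 0.534 (H2B), 0.656 (H3) and 0.707 (H4), all with intervals below 1. Without scaling, a view added after the data were seen, the mean was 40.5 histone UMIs per barcode in SAA and 43.1 in RC (ratio 0.940), at median depths of 8651 and 5796 UMIs. Of 39 histone genes tested, 14 were called lower (11.7% of all genes) and 1 higher (10.1%), and the median log2 ratio was -0.67, against -0.06 over all genes. Hist1h2ae was at 724.7 CPM in SAA and 1426 in RC (ratio 0.508, 0.462 to 0.559). Hist1h1b was at 788.0 and 1253 CPM (0.629, 0.571 to 0.694) and Hist1h1e at 322.2 and 650.0 CPM (0.496, 0.430 to 0.572). Hist1h1c (0.476), Hist1h3c (0.497), Hist1h3i (0.502), Hist1h4d (0.575), Hist1h4h (0.525), Hist1h2bj (0.403), Hist1h2bb (0.434) and Hist1h2af (0.398) were lower as well, as were Hist1h2ai, Hist1h2an and Hist1h2be, named after their values were seen.

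Other genes were not called. Hist1h2ap was at 0.767 (0.688 to 0.857), short of 1.5-fold, and Hist1h1d at 0.716 (0.599 to 0.859). The values of Hist1h1a (1.016, 0.753 to 1.385), Hist1h4i (1.004, 0.585 to 1.785) and Hist2h2ac (0.933, 0.705 to 1.244) had intervals that include 1. Hist2h2aa1 was the gene called higher, at 27.5 and 7.304 CPM (3.764, 1.349 to 14.6) on 36 and 4 UMIs, and most of its sequence is shared with other genes.

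This difference depended on which monocyte-like cells were set side by side. Cycling cells were 25.7% (21.2 to 30.7) of monocyte-like barcodes in RC and 49.5% (43.5 to 55.4) in SAA. Over all monocyte-like barcodes, without the cycling split, the histone sum was 2947 CPM in RC and 2887 CPM in SAA (ratio 0.980, 0.941 to 1.020). In that comparison Hist1h2ap was at 1.213 (1.088 to 1.353), Hist1h1b at 0.993 (0.901 to 1.095), Hist1h2ae at 0.806 (0.733 to 0.887), Hist1h1e at 0.752 (0.655 to 0.864), Hist1h1c at 0.615 (0.456 to 0.828) and Hist1h2be at 0.402 (0.197 to 0.793). The last 4 had intervals below 1, of which Hist1h1c and Hist1h2be were lower by 1.5-fold or more. Besides Hist1h2ap, intervals above 1 were found for Hist1h1a (1.626, 1.205 to 2.217), Hist2h2aa1 (3.731, 1.650 to 9.886, on 39 and 7 UMIs) and Hist2h2ac (1.431, 1.091 to 1.891). Of these, Hist1h1a and Hist2h2aa1 were higher by 1.5-fold or more. The share of all genes past this fold is not given for the unsplit comparison, so these genes cannot be set against a background. Among cycling monocyte-like cells, the 4 genes of the split were at 0.676 and the G2M list at 0.617 in SAA against RC, while the S list was at 1.014. S-leaning barcodes were 23.9% of cycling monocyte-like barcodes in RC and 39.7% in SAA. Within S-leaning barcodes the histone ratio was 0.611 (0.570 to 0.656) and within G2M-leaning barcodes 0.581 (0.551 to 0.612). It was 0.692 when 10 UMIs defined cycling, 0.807 when barcodes were first thinned to 2500 UMIs and 0.637 without barcodes marked by T or NK genes.

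**Figure D5:**
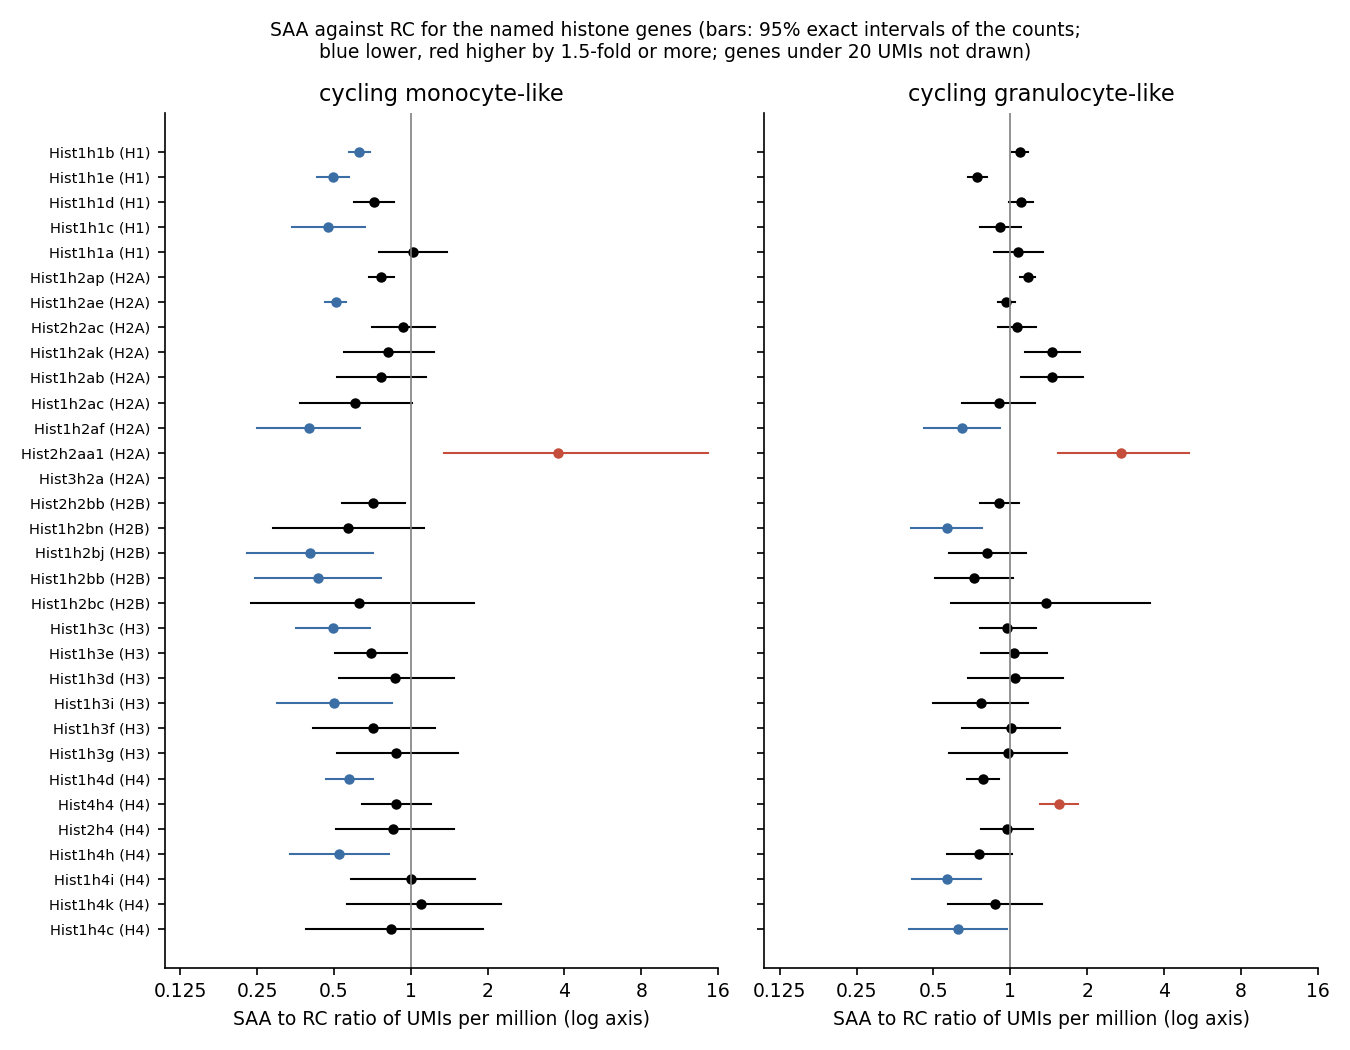
SAA to RC ratio of CPM (log axis, 95% intervals) of the named histone genes in cycling monocyte-like and cycling granulocyte-like cells, grouped by type. Most monocyte-like points lie below 1 (Hist1h2ae 0.508, Hist1h1e 0.496), while granulocyte-like points lie on both sides of it.

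Cycling granulocyte-like cells of both conditions had close histone levels. The SAA to RC ratio was 0.996 (0.968 to 1.025), with H1 at 0.966, H2A at 1.087 (1.039 to 1.137), H2B at 0.786 (0.706 to 0.874), H3 at 0.985 and H4 at 0.9504. Of 48 genes, 7 were called lower (8.06% of all genes) and 2 higher (11.6%), and the median log2 ratio was -0.04. H2B and H4 genes made up 5 of the 7, Hist1h2bn (0.563), Hist1h4i (0.563), Hist1h4c (0.626) and, named after their values were seen, Hist1h2bm (0.511) and Hist1h2bg (0.535). The other 2 were Hist1h2af (0.647) and, named in the same way, Hist1h2an (0.354). Hist4h4 was higher, at 137.2 CPM in SAA and 88.4 CPM in RC (1.553, 1.306 to 1.850), and Hist2h2aa1 again (2.703, 1.535 to 5.033). Hist1h1e was at 0.742 (0.681 to 0.810) and Hist1h2ap at 1.169 (1.092 to 1.252), neither past 1.5-fold. The difference between the lineages in the SAA to RC ratio was not tested, as each ratio rests on 1 library per condition.

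In non-cycling cells the counts were small. The ratio was 0.784 (0.631 to 0.971) in monocyte-like cells, on 148 SAA and 213 RC UMIs, and 1.393 after thinning before classing. It was 1.458 (1.027 to 2.085) in granulocyte-like cells, on 88 and 54 UMIs, and 0.985 after thinning, so neither kept its direction. Of 6 genes tested in non-cycling monocyte-like cells 1 was called lower (15.6% of all genes) and 0 higher (12.4%). It was Hist1h1c, with 6 UMIs in SAA and 24 in RC (0.282, 0.0943 to 0.708). Of 2 genes tested in granulocyte-like cells 1 was called higher (12.7% of all genes), Hist1h2ap, with 17 UMIs in 6 SAA barcodes and 3 UMIs in 2 RC barcodes. A single SAA barcode held 19 of the 88 histone UMIs. Without the barcode richest in histone UMIs of each library, an alternative added after the data were seen, the granulocyte-like ratio was 1.332 (0.904 to 1.979).

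Between the lineages, cycling granulocyte-like cells had lower histone CPM than cycling monocyte-like cells in RC (ratio 0.553, 0.532 to 0.575) and, by a smaller margin, in SAA (0.875, 0.847 to 0.903). In RC 20 of 42 histone genes were called lower in granulocyte-like cells (29.9% of all genes) and 0 higher (9.0%). In SAA 8 of 50 were lower (30%) and 1 higher (11.3%), Hist2h4 at 1.592 (1.147 to 2.248). Over all genes tested, the log2 ratio itself had a median of -0.40 in RC and -0.31 in SAA, and the histone genes had medians of -0.72 and -0.24. In SAA, histone genes were thus called lower less often than all genes, and their median lay above that of all genes. H3 genes stood out by value in both libraries, with type ratios of 0.375 (0.319 to 0.443) in RC and 0.564 (0.493 to 0.645) in SAA. Hist1h3d, Hist1h3e, Hist1h3f, Hist1h3g and Hist1h3i were each called lower in both. H4 was at 0.755 (0.669 to 0.855) in RC and 1.016 (0.922 to 1.121) in SAA. Hist1h1a was also lower in both libraries, at 0.548 and 0.580.

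Histone variants encoded outside the clusters were also higher in cycling cells. Of 12 listed, 11 were found and 9 could be tested, of which 7, 5, 6 and 5 were called higher in cycling than in non-cycling RC monocyte-like, RC granulocyte-like, SAA monocyte-like and SAA granulocyte-like cells (14.7, 6.43, 13.3 and 11.8% of all genes) and 0 lower. Their median log2 ratios were 1.33, 0.67, 1.17 and 0.68, against 4.30, 1.97, 3.42 and 1.65 for the clustered genes tested, with those at 0 UMIs in a group set at the floor of 3 UMIs. H2afz, a replication-independent H2A variant, was at 4629 CPM in cycling and 1718 CPM in non-cycling RC monocyte-like cells (2.694, 2.522 to 2.878), and H3f3a, which encodes a replication-independent H3, at 2385 and 2143 CPM (1.113, 1.035 to 1.196). H3f3b, of the same protein, was at 1.546 and H2afv at 5.158. Between conditions, 7 of the 9 were called lower (11.7% of all genes) and 0 higher in SAA cycling monocyte-like cells, where H2afz was at 0.504, H3f3a at 0.454, H2afv at 0.342 and H3f3b at 0.753. In cycling granulocyte-like cells 5 of 9 were lower (8.06%), with H2afz at 0.641 (0.620 to 0.662), H3f3a at 0.576 (0.545 to 0.609) and H2afv at 0.569 (0.523 to 0.620). These variants were thus below 1 in granulocyte-like cells, where the clustered sum was at 0.996.

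Of 11 genes of histone transcription and mRNA processing, 2 of 5, 3 of 9, 2 of 8 and 4 of 10 tested were called higher in S-leaning cells of RC monocyte-like, RC granulocyte-like, SAA monocyte-like and SAA granulocyte-like cells (5.79, 9.49, 5.11 and 9.45% of all genes). In SAA monocyte-like cells 1 of 8 was lower (5.08% of all genes). Slbp was higher in S-leaning cells in all 4 groups, at 2.505 (1.747 to 3.575), 1.928 (1.600 to 2.330), 1.633 (1.212 to 2.203) and 1.826 (1.563 to 2.139) in the same order. Casp8ap2, a factor of histone pre-mRNA processing, was higher in all 4 as well (2.679, 2.930, 2.566 and 1.704). Cpsf2, of the cleavage machinery, was lower in SAA monocyte-like cells (0.555), and Eri1, an exonuclease that acts on histone mRNA ends, was higher in SAA granulocyte-like cells (1.623). In SAA against RC, 2 of 10 were called lower (11.7% of all genes) and 0 higher (10.1%) in cycling monocyte-like cells. They were Slbp (142.0 and 244.7 CPM, 0.581, 0.462 to 0.730) and Casp8ap2 (0.642, 0.431 to 0.966). In cycling granulocyte-like cells 0 of 10 were called in either direction (8.06% of all genes lower and 11.6% higher).

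Of 14 histone chaperones and carriers, 5 of 10, 6 of 14, 8 of 14 and 4 of 14 were called higher in S-leaning cells of the 4 groups, in the same order (5.79, 9.49, 5.11 and 9.45% of all genes), and 0 lower. Rbbp7, a histone-binding subunit of several chromatin complexes, was higher in both monocyte-like groups (1.562 and 2.025), and Rbbp4 in SAA monocyte-like cells (1.596). Nap1l1, an H2A and H2B chaperone, lay between 1.145 and 1.484 and Atrx between 0.961 and 1.183, without a call. Between conditions 1 of 14 was called higher (10.1% of all genes) and 1 lower (11.7%) in cycling monocyte-like cells. The former was Daxx, a chaperone of replication-independent H3 (6.273, 2.327 to 23.8). The latter was Hjurp, which loads the centromeric H3 (0.414, 0.308 to 0.555). In cycling granulocyte-like cells 2 of 14 were higher (11.6%) and 0 lower (8.06%). They were Chaf1b, a subunit of the replication-coupled assembly factor (1.678), and Daxx (1.613). The shares called between conditions lie close to or below those over all genes. Daxx, Hjurp and Chaf1b were named after their values were seen.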

How the data were processed

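Single-cell 5′ v2 libraries (10x Genomics) of sorted BM cells were analysed, 1 RC and 1 SAA library of 3 pooled mice each. The authors deposited raw UMI counts for each gene in each barcode. The submitters' processing notes name Cell Ranger 6.0.1 and the build mm10. Reverse transcription in this chemistry is primed on poly(A), so messages without a tail are captured in part. Cell Ranger drops reads that fit several genes equally well.

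Barcodes with at least 1000 genes were kept and none exceeded 25% mitochondrial UMIs. For each class of a library, UMIs were added up and scaled to 1000000 (CPM). CPM carry exact Poisson, ratios exact conditional binomial and shares Clopper-Pearson 95% intervals. No p-value was computed and cells were not replicates. No doublet caller was run; barcodes mixed between lineages (31 in RC, 82 in SAA) were left out as an alternative. The calling threshold is given in the report. Barcodes were S-leaning when the S-list sum over its mean exceeded the G2M-list sum over its mean, and bins of position used the log2 difference of both. Thinning to 2500 UMIs left out 64 RC and 30 SAA barcodes. TMM factors came from edgeR 4.0.16 under R 4.3.3. Other steps used Python 3.11.15, numpy 2.4.6, scipy 1.17.1, pandas 2.3.3 and matplotlib 3.10.9, and the ratio and interval code was tested on simulated data.

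The members, lists, split and alternatives were chosen with earlier results of these data known. Genes named are the 30 with the most UMIs among those with at least 100, those with at least 10 non-cycling UMIs in 1 library, and the 4 with the most UMIs of each context list. Of 3 genes tied at 121 UMIs, Hist2h2aa1 was taken by its place in the file. Gene models are from GENCODE vM21 and promoters from RefSeq, not necessarily the release the authors counted with.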

Additional observations from a re-analysis of the deposited data

How the results depend on the processing

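Sums, ratios and counts of the SAA to RC, cycling to non-cycling and S-leaning to G2M-leaning comparisons were recomputed under the alternatives, 232 values in all. The granulocyte-like to monocyte-like comparison was not rescaled. Of the 232 values, 174 stayed within the interval or within 1.5 times the count and 51 moved. Another 7 turned to the other side of 1 although the interval of the reported sum left out 1. Those 7 were non-cycling SAA to RC sums (monocyte-like, thinned or not scaled, and granulocyte-like, thinned) and S-leaning to G2M-leaning sums in granulocyte-like cells (RC with cycling set at 10 UMIs or thinned, SAA thinned or with equal weight). No paired analysis was possible because each condition is 1 library, and no library could be left out for the same reason. Depth limits the non-cycling groups, which hold 54 to 213 histone UMIs each. The following values moved or turned, and the cause was not tested.

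With cycling set at 10 UMIs, SAA to RC was 0.6919 (cycling monocyte-like) and 0.9537 (cycling granulocyte-like), cycling to non-cycling 21.70 (RC monocyte-like) and 9.535 (SAA granulocyte-like), and S-leaning to G2M-leaning 1.211, 1.525 and 1.171 (RC granulocyte-like, SAA monocyte-like, SAA granulocyte-like). With barcodes thinned to 2500 UMIs before classing, SAA to RC was 0.8072, 1.393, 0.8867 and 0.9854 (cycling and non-cycling monocyte-like, cycling and non-cycling granulocyte-like), cycling to non-cycling 22.29, 4.610, 12.91 and 4.148 (RC monocyte-like, RC granulocyte-like, SAA monocyte-like, SAA granulocyte-like), and S-leaning to G2M-leaning 1.043, 1.249 and 0.8973 (order as above). Without mixed barcodes, SAA to RC was 0.6616 in cycling monocyte-like cells, and S-leaning to G2M-leaning 1.709 (RC) and 1.334 (SAA) in monocyte-like cells. With raw list sums the latter ratio was 0.7702, 1.149 and 1.031 (RC granulocyte-like, SAA monocyte-like, SAA granulocyte-like).

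Scaling by TMM shifted all genes by -0.12 (log2) between SAA and RC cycling monocyte-like cells and gave 0.6858 there, with S-leaning to G2M-leaning at 1.227, 0.8898 and 1.016 (RC monocyte-like, RC granulocyte-like, SAA granulocyte-like), 2 genes lower in RC granulocyte-like and 3 higher in SAA granulocyte-like cells. The median of ratios gave 0.6916, then 1.220, 0.9065 and 1.003, with 1 lower and 2 higher. With equal weight per barcode, SAA to RC was 0.9261 in cycling granulocyte-like cells, and S-leaning to G2M-leaning 1.331 (SAA monocyte-like) and 0.9586 (SAA granulocyte-like). Without the gene with the most UMIs they were 0.9629 and, in SAA granulocyte-like cells, 1.135. Within G2M-leaning barcodes, SAA to RC was 0.5805 (monocyte-like) and 0.9302 (granulocyte-like), and within S-leaning granulocyte-like barcodes 1.057. As histone UMIs per barcode, not scaled, SAA to RC was 0.9398, 1.226 and 1.044 (cycling monocyte-like, non-cycling monocyte-like, cycling granulocyte-like). These alternatives were chosen after seeing the data.

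At a minimum of 50 UMIs per gene the counts were 0 higher in SAA cycling monocyte-like, 0 lower in non-cycling monocyte-like and 0 higher in non-cycling granulocyte-like cells, 13 (RC) and 18 (SAA) higher in cycling monocyte-like cells, 0 lower in SAA cycling granulocyte-like cells, and 4 higher in S-leaning RC monocyte-like cells. With no minimum, 2 were lower in SAA non-cycling monocyte-like cells, 1 lower in SAA cycling against non-cycling monocyte-like cells, 2 higher in S-leaning RC granulocyte-like and 2 lower in S-leaning SAA granulocyte-like cells. The minimum also changes how many genes can be tested. Numbers tested and shares of all genes are not given at these minimums, so these counts cannot be set against a background.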
